A study of Arabidopsis thaliana with 4 samples.

Results

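Arabidopsis genes for the breakdown of chlorophyll were examined in whole seeds at the post-mature green stage, in the ddcc mutant and in wild type. The genes were 7, chosen by locus as the enzymes from the reduction of chlorophyll b to the reduction of the opened ring: NYC1 (AT4G13250), NOL (AT5G04900), NYE1 (AT4G22920), NYE2 (AT4G11910), PPH (AT5G13800), PAO (AT3G44880) and RCCR (AT4G37000). All 7 were among the 27416 genes of the deposited tables, and all 7 passed the filter on low values that left 15780 genes to test. The ddcc group held 2 libraries from the mutant in ecotype Col 0, a line known to lack the DNA methyltransferases DRM1, DRM2, CMT2 and CMT3, and the wild-type group held 2 libraries from Col 0. The alleles were not named in the labels. Plants of both genotypes grew in a greenhouse, received no treatment named in the labels, and gave whole seeds, so that embryo, endosperm and seed coat RNA were pooled in each library.

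Chlorophyll is taken apart inside the plastid in a fixed order. Chlorophyll b is first reduced towards chlorophyll a, the magnesium is then removed, the phytol tail is cut off, the porphyrin ring is opened by an oxygenase, and the red product is reduced to a colourless one that is further modified and moved to the vacuole. Arabidopsis embryos are green during seed filling and lose their chlorophyll as the seed matures, and seeds that lack both NYE1 and NYE2 are known to stay green.

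The values are normalised read counts, not divided by gene length. The inferred reads totalled 1122934 and 1166635 in ddcc, against 3416071 and 1292023 in wild type, so that the first wild-type library was the deepest. DRM2, the main de novo DNA methyltransferase, had 4.85 and 8.33 normalised counts in ddcc, against 39.3 and 39.6 in wild type, a difference of -2.36 on the log2 scale (SE 0.39, limma adjusted p = 0.00347). That call was lost when any 1 library was left out (adjusted p from 0.059 to 0.363). The other 3 targeted genes had too few reads to check the labels. One source name was at odds with the other labels: that of wild-type replicate 2 reads ddcc. The library was kept as wild type by its genotype label, and the calls of PPH and NYE2 are given with and without it. Markers of seed storage and oil, the check of the labelled tissue, were all 9 present, and their sums came to 80488 and 94666 in ddcc, against 127409 and 118364 in wild type. Among them SESA2 had a positive log2 fold change (1.04) and the rest had negative ones, and none was called. Endosperm markers (5 genes, of which EPR1 gave nearly all) came to 23685 and 32221 in ddcc, against 13984 and 15749 in wild type, and 2 of them had no reads. FIS2 and AGL62, the others with reads, went the other way (log2 fold changes -1.39 and -0.23), and no endosperm marker was called. Seed coat markers (6 genes) came to 92.1 and 84.6 in ddcc, against 77.5 and 18.8 in wild type, and 1 had no reads. TT10 alone gave 82.4 and 65.6 of those in ddcc, against 61.4 and 6.78 in wild type, and was not called. Silique wall markers (5 genes) came to 14.05 and 9.83 in ddcc, against 16.8 and 8.29 in wild type, and 3 had no reads. Genes of the organelle genomes took 4.01% and 4.08% of reads in ddcc, against 2.08% and 1.89% in wild type. The part of these differences in the results below was not tested.

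Of the 7 genes, 2 were lower in ddcc by the test, PPH and NYE2, and 5 were not called. None was called higher, none was higher at an unadjusted p under 0.05, and voom in limma called the same 2 genes lower and none higher. Called here means a Benjamini-Hochberg adjusted p under 0.05 over all genes tested, which 6.48% of the 15780 genes met, 3.45% as lower and 3.03% as higher in ddcc. With voom 7.48% met it, 3.97% as lower and 3.51% as higher. An unadjusted p under 0.05 was met by 11.1% of the genes tested as lower and by 10.1% as higher in ddcc, and by 3 of the 7 genes as lower. The libraries of the 2 genotypes did not overlap for 3 of the 7 genes, PPH, NYE2 and NYC1, each lower in ddcc, while 25.3% of all genes tested were lower without overlap. Another 25.7% of all genes tested were higher in ddcc without overlap. The median log2 fold change was -0.31 over the 7 genes and 0.017 over all genes tested. With 2 libraries a genotype, limma moderates each gene's spread between these libraries towards that of genes of like level. A p-value therefore does not measure that gene's own spread alone. With no variance trend neither PPH nor NYE2 was called (limma adjusted p = 0.106 and 0.25). In whole seeds fewer cells of a type and less RNA per cell cannot be told apart.

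**Figure D1:**
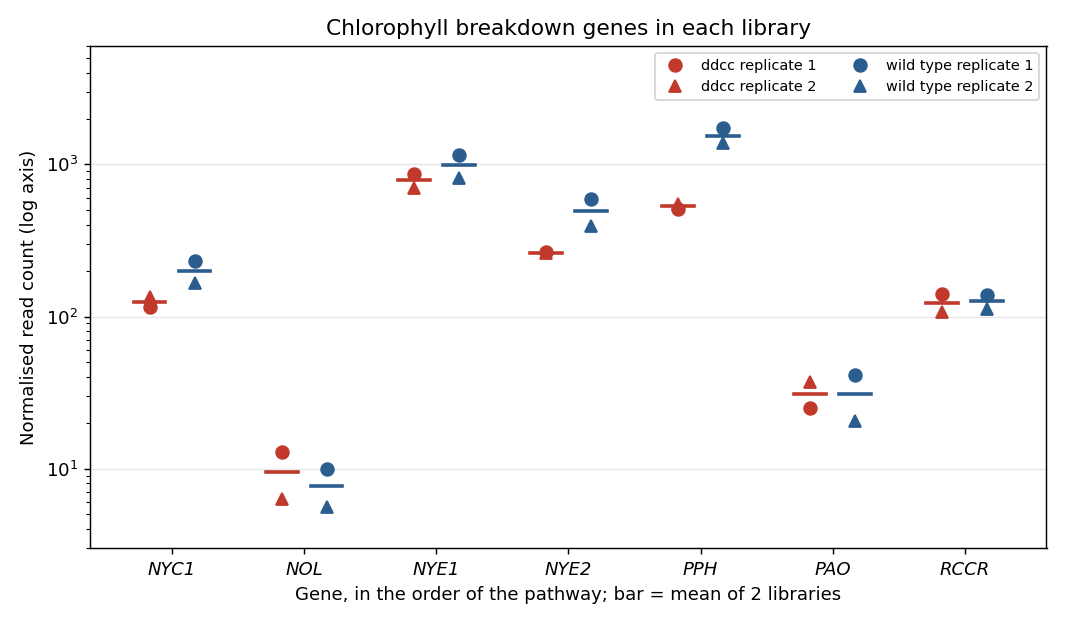
Normalised read counts of the 7 genes (log axis) in each library, ddcc left of wild type, with the mean of each genotype as a line. The libraries of the 2 genotypes are separate for PPH, NYE2 and NYC1, with ddcc below wild type.

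The first step is carried by the 2 subunits of chlorophyll b reductase, NYC1 and NOL, which turn chlorophyll b into 7-hydroxymethyl chlorophyll a. NYC1 (chromosome 4, chr4:7684156-7687006, minus strand, 10 exons, build TAIR10.1) had 116 and 134 normalised counts in ddcc, against 229.9 and 167 in wild type. Both ddcc libraries were below both wild-type libraries. The means were 125 ± 12.9 in ddcc and 198 ± 44.5 in wild type (SD, n = 2 each), and the log2 fold change of -0.65 (SE 0.24, 95% interval -1.16 to -0.13) did not pass the test over all genes (limma adjusted p = 0.133, unadjusted 0.0171). NOL (chr5:1434774-1437495, plus strand, 13 exons) was the gene with the fewest reads, with 12.8 and 6.29 normalised counts in ddcc, against 9.90 and 5.58 in wild type. Those values rest on 16 reads in ddcc and 22 in wild type, and the genotypes overlapped. Its log2 fold change was 0.23 with an interval of -0.85 to 1.31 (limma adjusted p = 0.842), so that a moderate difference in either direction was not detectable at this depth.

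NYE1 and NYE2, also called SGR1 and SGR2, are the Mg-dechelatases, which take the magnesium out of chlorophyll a and start the loss of green colour. NYE1 (chr4:12016420-12018643, minus strand, 5 exons) had 869.5 and 702 normalised counts in ddcc, against 1155 and 813 in wild type. The first ddcc library lay above the second wild-type library, so the genotypes overlapped. The means were 786 ± 119 in ddcc and 984 ± 241 in wild type, which differed by -0.31 on the log2 scale (SE 0.24, interval -0.82 to 0.20, limma adjusted p = 0.503). NYE2 (chr4:7156150-7158047, plus strand, 4 exons) had 264 and 262 normalised counts in ddcc, against 594 and 391 in wild type. The ddcc libraries lay close together and below both wild-type libraries. NYE2 fell by 0.87 on the log2 scale in ddcc (SE 0.24, interval -1.38 to -0.36, limma adjusted p = 0.0425), so that the wild-type level was 1.83 times that in ddcc, near the threshold.

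The NYE2 call did not hold without either ddcc library (adjusted p = 0.451 and 0.467), without wild-type replicate 1 (0.154), with no filter (0.112), with quantile normalisation (0.116), with equal nuclear totals (0.196) or with no variance trend (0.25). It held without wild-type replicate 2, with a log2 fold change of -1.17 (adjusted p = 0.0323), and over all 15 alternatives its adjusted p ran from 0.0213 to 0.467 while the log2 fold change stayed negative, from -1.17 to -0.48. Within a library, NYE2 stood at 0.304 and 0.374 of NYE1 in ddcc, against 0.514 and 0.481 in wild type. The 2 ddcc ratios were below both wild-type ratios, and an exact two-sided permutation test gave p = 0.333, the smallest that 2 against 2 libraries allow. The coding sequences of NYE1 and NYE2 were identical at 79.1% of 788 aligned positions, and their closest stretch matched at 86.2% over 174 bases. No stretch of either reached 95% identity over 100 bases with another gene, the limit used here for near-identical copies.

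The 250 bases before the annotated start of NYE1 and NYE2 are printed because the pair acts at the same step, and that of PPH because it showed the largest fold difference of the 7. They are in TAIR10.1 from RefSeq, 5′ to 3′ on the gene's own strand, at chr4:12018644-12018893 (minus) for NYE1, chr4:7155900-7156149 (plus) for NYE2 and chr5:4454814-4455063 (minus) for PPH, with capitals for matches to 3 motifs searched on both strands.
NYE1: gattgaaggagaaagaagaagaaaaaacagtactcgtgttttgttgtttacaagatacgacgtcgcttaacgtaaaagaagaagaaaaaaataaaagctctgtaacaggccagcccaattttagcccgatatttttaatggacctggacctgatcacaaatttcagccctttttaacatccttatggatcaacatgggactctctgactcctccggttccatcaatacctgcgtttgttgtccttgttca
NYE2: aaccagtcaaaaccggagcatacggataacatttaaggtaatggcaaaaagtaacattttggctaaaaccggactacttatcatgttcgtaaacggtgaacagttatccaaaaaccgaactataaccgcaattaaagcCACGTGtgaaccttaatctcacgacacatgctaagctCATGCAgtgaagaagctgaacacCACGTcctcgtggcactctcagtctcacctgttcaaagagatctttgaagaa
PPH: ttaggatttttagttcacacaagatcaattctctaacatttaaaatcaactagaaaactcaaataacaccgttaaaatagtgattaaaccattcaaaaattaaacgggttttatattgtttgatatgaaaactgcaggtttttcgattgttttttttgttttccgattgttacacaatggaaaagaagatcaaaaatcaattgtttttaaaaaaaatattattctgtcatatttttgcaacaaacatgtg
The motifs were CACGTG, the G-box bound by bZIP and bHLH factors, ACGTG, the core of elements linked to abscisic acid, and CATGCA, the core of the RY element bound by B3 factors such as ABI3. The NYE2 window held CACGTG once, starting 112 bases before the gene, CATGCA once, at 75 bases, and ACGTG 3 times, of which 2 were the overlapping matches inside CACGTG on both strands and the other lay at 52 bases. The NYE1 and PPH windows held none of these letters. Among all 7 windows, CACGTG was in 2 (NYE2 and NOL), ACGTG in the same 2 and CATGCA in 1 (NYE2). Of 26718 windows of the same length before annotated genes, 6.58% held CACGTG, 23.1% ACGTG and 8.51% CATGCA.

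PPH, pheophytinase, cuts the phytol tail from pheophytin once the magnesium has been removed. PPH (chr5:4451733-4454813, minus strand, 7 exons) had 512 and 548 normalised counts in ddcc, against 1720.2 and 1372 in wild type. Both ddcc libraries lay far below both wild-type libraries, and the wild-type libraries lay further apart than the ddcc libraries. The means were 530.0 ± 25.1 in ddcc and 1546 ± 246 in wild type (SD, n = 2 each), and PPH fell by 1.53 on the log2 scale in ddcc (SE 0.22, interval -2.01 to -1.06, limma adjusted p = 0.00134). The wild-type level was 2.90 times that in ddcc, and PPH ranked 74 by p among the 15780 genes tested. The reads behind it were 434 and 453 in ddcc, against 3237 and 1040.0 in wild type, and their depth-corrected ratio of ddcc to wild type was 0.327 (95% exact interval 0.304 to 0.352, for counting error only).

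Without ddcc replicate 1 or 2 PPH was not called (adjusted p = 0.363 and 0.376), at log2 fold changes of -1.49 and -1.58, and in those fits, which assume that the lone ddcc library varies like the wild type, 1 gene of the whole table was called each time. With no variance trend its adjusted p was 0.106. Without wild-type replicate 1 it was 0.021 and without replicate 2 it was 0.0124, at -1.37 and -1.70. Over the 15 alternatives the adjusted p ran from 1.57e-05 to 0.376 and the log2 fold change from -1.70 to -1.14.

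PAO and RCCR act after the phytol is gone. PAO, pheophorbide a oxygenase, opens the ring and is known as the step that commits the pigment to degradation. It lies at chr3:16383595-16386344 (plus strand, 7 exons) and overlaps AT3G44870, which had 0 reads in all 4 libraries. PAO had 25.1 and 37.2 normalised counts in ddcc, against 41.0 and 20.6 in wild type. The 2 ddcc values lay between the 2 wild-type values. The log2 fold change was 0.065 (SE 0.37, interval -0.73 to 0.86, limma adjusted p = 0.944). RCCR, the reductase that turns the red product into a fluorescent colourless one, lies at chr4:17442612-17444295 (plus strand, 2 exons) and overlaps AT4G37010, which had at most 2.302 normalised counts in a library. RCCR had 140.2 and 107 normalised counts in ddcc, against 139 and 113 in wild type. The genotypes overlapped almost fully. Its log2 fold change was -0.03 (SE 0.24, interval -0.55 to 0.49, limma adjusted p = 0.961), and a p of this size does not show that the levels were alike.

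**Figure D2:**
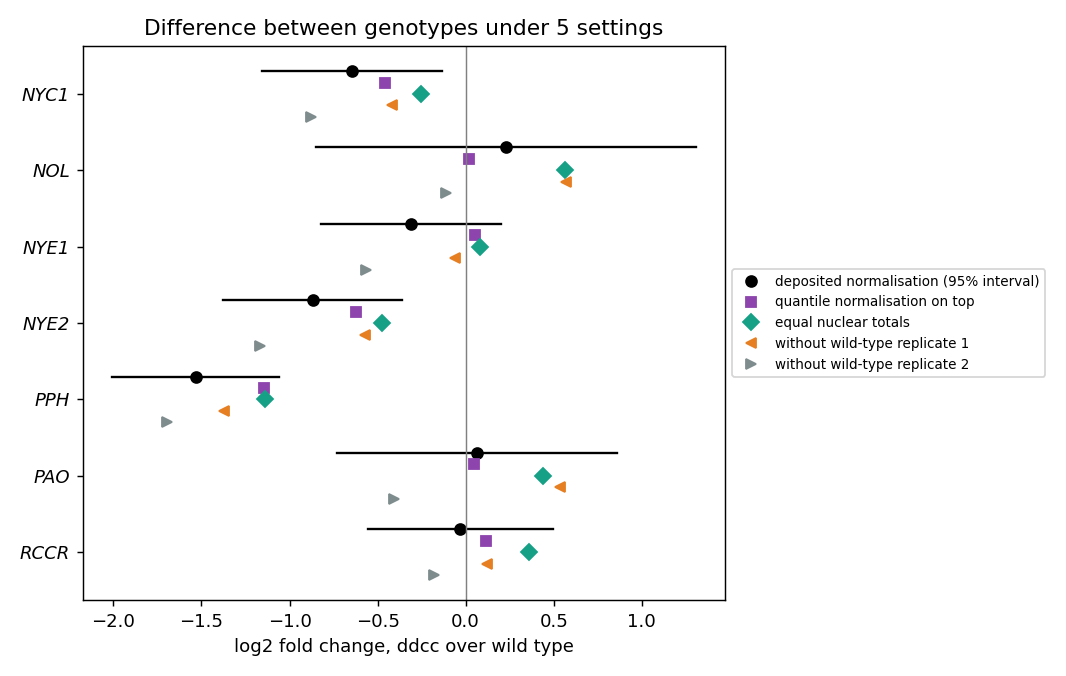
Log2 fold change of ddcc over wild type for the 7 genes, for the deposited normalisation with its 95% interval and for 4 other settings. PPH lies furthest below 0 in each setting shown, from -1.70 to -1.14, and NYE1 and RCCR lie on different sides of 0 in different settings.

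Another scaling moved all genes together. When nuclear genes were given the same total in every library, the median of all genes tested moved up by 0.36 on the log2 scale, and relative to that median PPH was at -1.52, NYE2 at -0.85, NYC1 at -0.63 and NYE1 at -0.29. Before that subtraction, the values of NYE1 and RCCR turned positive in that setting, at 0.083 and 0.36. Of the genes called, 46.7% were higher in ddcc with the deposited normalisation and 87.4% with equal nuclear totals.

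Ratios between the 7 genes within a library do not depend on such scaling. PPH stood at 0.589 and 0.781 of NYE1 in ddcc, against 1.49 and 1.69 in wild type. Both ratios in ddcc were below both in wild type. PPH to RCCR was 3.66 and 5.13 in ddcc, against 12.4 and 12.2 in wild type, and PPH to NYE2 was 1.94 and 2.09 in ddcc, against 2.90 and 3.51 in wild type. None of the 3 ratios overlapped between genotypes. Of 8 ratios computed, PAO to RCCR overlapped, at 0.179 and 0.348 in ddcc, against 0.295 and 0.183 in wild type. The remaining 7 did not overlap and reached the smallest exact two-sided permutation p of 0.333, which after Benjamini-Hochberg adjustment over the 8 cannot pass 0.05. The 8 were chosen pairs that share genes, so they are not separate observations. No share without overlap was computed for ratios of other genes. Of all single genes tested, 25.7% were higher and 25.3% lower in ddcc without overlap.

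Together the 7 genes had 1940.0 and 1796 normalised counts in ddcc, against 3888 and 2883 in wild type. Without PPH the sums were 1428 and 1248.5 in ddcc, against 2168 and 1510.4 in wild type, still without overlap in these counts. Such sums depend on the scaling, and the deposited totals were lower in ddcc (1325381 and 1410907, against 1815256 and 1705082). With equal nuclear totals, NYE2 and NYC1 kept negative log2 fold changes (-0.48 and -0.26). Those of NYE1, RCCR, PAO and NOL were positive (0.083, 0.36, 0.44 and 0.56). The sums without PPH therefore do not show that the other genes were lower as a set. PPH made up 26.4% and 30.5% of the summed counts in ddcc, against 44.2% and 47.6% in wild type. NYE1 made up 44.8% and 39.1% in ddcc, against 29.7% and 28.2% in wild type. The share of PPH was thus smaller and that of NYE1 larger in both ddcc libraries than in either wild-type library. The share of NYE2 overlapped between the genotypes, at 13.6% and 14.6% in ddcc, against 15.3% and 13.6% in wild type. Those of NYC1, RCCR, PAO and NOL ran up to 7.46%, for NYC1 in the second ddcc library. Like that of NYE1, each of these shares was larger in both ddcc libraries than in either wild-type library. For RCCR they were 7.22% and 5.94% in ddcc, against 3.57% and 3.90% in wild type. The gap was narrow for NYC1, at 5.97% and 7.46% in ddcc, against 5.91% and 5.79% in wild type. Since the shares of a library add up to the whole, a smaller share of PPH by itself raises the others. The larger shares, that of NYE1 included, are therefore not separate results. The counts of NYC1 were lower in ddcc, at 116 and 134, against 229.9 and 167 in wild type.

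**Figure D3:**
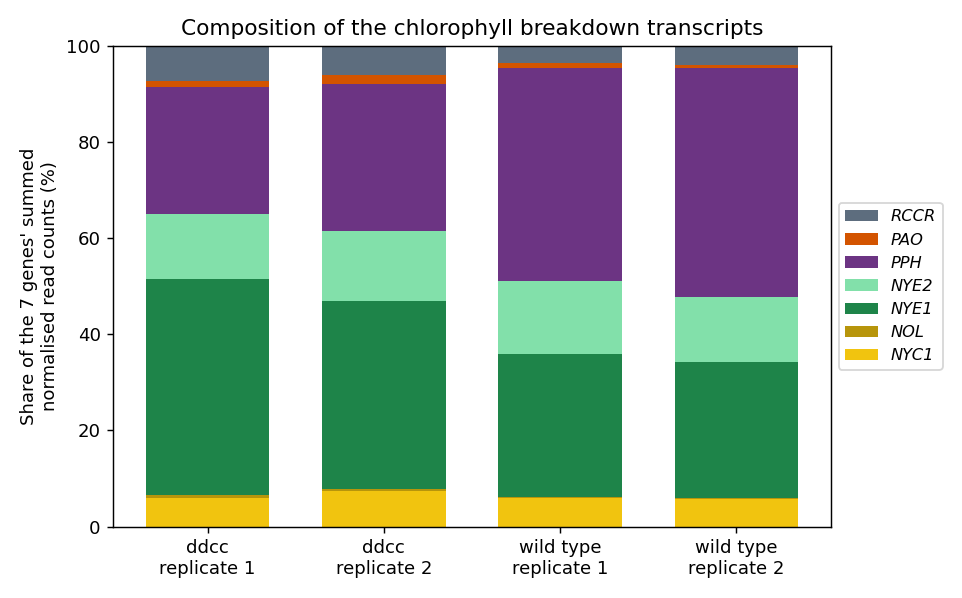
Share of each of the 7 genes in their summed normalised counts (percent, stacked to 100), per library, ddcc left of wild type. PPH takes 26.4% and 30.5% in ddcc, against 44.2% and 47.6% in wild type.

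Levels between genes were compared per kilobase of the longest transcript. In ddcc, NYE1 was highest with 505 and 408 normalised counts per kb, followed by PPH with 239 and 255, NYE2 with 202 and 200.5, RCCR with 92.9 and 70.8, NYC1 with 58.2 and 67.4, PAO with 12.4 and 18.4 and NOL with 9.12 and 4.49. No neighbours in that order overlapped between the 2 ddcc libraries. In wild type, PPH had 801 and 639 per kb and NYE1 671 and 472, which overlapped, followed by NYE2 with 454 and 299. NYC1 with 116 and 83.9 and RCCR with 92.0 and 74.6 also overlapped in wild type. PAO with 20.3 and 10.2 and NOL with 7.07 and 3.99 were the lowest there too. NOL and PAO thus had the lowest levels per length of the 7 in both genotypes.

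The genes whose pattern over the 4 libraries was most like NYE1, by the root mean square difference of log2 values centred on each gene's mean among 3236 genes with a mean of at least 50 units, were AT3G22290 (0.0252), AT2G32070 (0.0312) and AT2G02570 (0.0361). For NYE2 they were PLC2 (0.0321) and the overlapping loci AT1G35515 and AT1G35516 (0.0349 each), whose reads may be shared. With 4 libraries such likeness is a description of these libraries.

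Other enzymes and transporters of the same route formed a list of 9 genes. Of these, 8 were tested and 1 was called, CLH2, lower in ddcc, as were 3.45% of all genes tested. None was called higher by limma or by voom, and an unadjusted p under 0.05 was met by 1 as higher and by 2 as lower (10.1% and 11.1% of all genes tested). The median log2 fold change of the 8 was 0.20. CLH2 encodes a chlorophyllase, which can also remove phytol but is not required for chlorophyll loss in senescing leaves. It had 18.9 and 19.4 normalised counts in ddcc, against 96.5 and 67.9 in wild type, without overlap. Its log2 fold change was -1.996 (SE 0.30, limma adjusted p = 0.00185), on 32 reads in ddcc and 231 in wild type. The call was lost without ddcc replicate 1 or 2 (adjusted p = 0.363 and 0.347) and with no variance trend (0.0832), within a range of 9.47e-07 to 0.363. ABCC3, a vacuolar transporter of the breakdown products, had the highest mean of that list, 138 and 133 in ddcc, against 188 and 215 in wild type (log2 fold change -0.56, limma adjusted p = 0.16).

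The remaining genes of that list are named after their values were seen. CLH1, on 0 ddcc reads and 1 wild-type read, was not tested, and none of the 6 others was called. CYP89A9, which modifies the products of RCCR, had 36.6 and 37.5 normalised counts in ddcc, against 20.7 and 19.9 in wild type, without overlap (log2 fold change 0.82, limma adjusted p = 0.153). It was called only with equal nuclear totals (adjusted p = 0.0275), in a range up to 0.534. HCAR, which completes the reduction begun by NYC1 and NOL, had 15.4 and 18.1 in ddcc, against 7.42 and 14.1 in wild type (limma adjusted p = 0.445). TIC55 and MES16, which modify the products, had adjusted p of 0.982 and 0.682, and the transporter ABCC2 had 0.423. SGRL, a relative of NYE1 and NYE2, rested on 4 reads in ddcc and 9 in wild type.

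Phytol released by PPH is esterified or returned to tocopherol synthesis. Of 4 genes for that recycling 2 were tested, and none was called by limma or voom or passed at an unadjusted p under 0.05. PES1, an esterase-like enzyme that makes phytyl esters, had 16.7 and 21.6 normalised counts in ddcc, against 32.0 and 29.2 in wild type (log2 fold change -0.64, limma adjusted p = 0.296). VTE6, the phytyl-phosphate kinase, had 4.74 and 4.85 in ddcc, against 2.38 and 5.08 in wild type (limma adjusted p = 0.807).

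Of 25 regulators linked to chlorophyll breakdown, 21 were tested, 4 were called higher in ddcc and none lower (3.03% and 3.45% of all genes tested). With voom the counts were also 4 and 0, and an unadjusted p under 0.05 was met by 4 as higher and by 2 as lower (10.1% and 11.1% of all genes tested). The median log2 fold change of the 21 was 0.47. The list also holds GLK1, an activator of synthesis, so the counts and median do not describe activators of breakdown alone. GLK1 is 1 of the 4 in each count of higher genes. It passed the filter of 1 unit (1.56) through its ddcc libraries alone, with 0.536 and 0.024 normalised counts in wild type. A gene admitted in this way could be called only as higher. With the filter at 5 units GLK1 was not tested, and 3 regulators were called higher. ABI3, the B3 factor whose loss is known to leave seeds green, had 397 and 562 normalised counts in ddcc, against 271 and 255 in wild type. It rose by 0.84 on the log2 scale (SE 0.23, limma adjusted p = 0.0422), without overlap. ABI5, a bZIP factor of abscisic acid signalling with the highest mean of the list, had 1094 and 1243 in ddcc, against 2015 and 1448 in wild type, also without overlap, and did not pass the test (log2 fold change -0.55, limma adjusted p = 0.202).

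PIF4, a bHLH factor known to promote leaf senescence in the dark, had 102 and 106 normalised counts in ddcc, against 23.5 and 7.38 in wild type. Its log2 fold change was 2.82 (SE 0.40, limma adjusted p = 0.0012). NAP, a NAC factor of leaf senescence, had 13.1 and 18.0 in ddcc, against 1.91 and 3.83 in wild type, on 26 and 7 reads (log2 fold change 1.97, limma adjusted p = 0.0308). The other NAC factors of the list, named after their values were seen, were not called. ORE1 was lower without overlap (log2 fold change -1.35, limma adjusted p = 0.117). NAC016, NAC019 and NAC046 were at -0.74, -0.59 and -0.11, and ORS1 was at 0.72. GLK1, an activator of chlorophyll synthesis and antenna genes, had 10.7 and 13.2 in ddcc, against 0.536 and 0.024 in wild type (limma adjusted p = 0.00933). GLK1 rests on 20 ddcc reads and 1 wild-type read. Their ratio was 31.5, with a 95% exact interval of 5.05 to 1307 for counting error. It was corrected by the same effective library sizes as that of PPH. PIF4, NAP and GLK1 did not overlap between genotypes. Of the 21 regulators tested, 10 were higher and 5 lower in ddcc without overlap, against 25.7% and 25.3% of all genes tested. All 4 calls were lost without either ddcc library (adjusted p of 0.364 and 0.523 for ABI3, 0.363 and 0.385 for PIF4, 0.374 and 0.438 for NAP, 0.363 and 0.4 for GLK1). ABI3 and NAP were not called without wild-type replicate 1 (0.108 and 0.129), and without wild-type replicate 2 ABI3, NAP and GLK1 were not (0.141, 0.0717 and 0.0522).

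**Figure D4:**
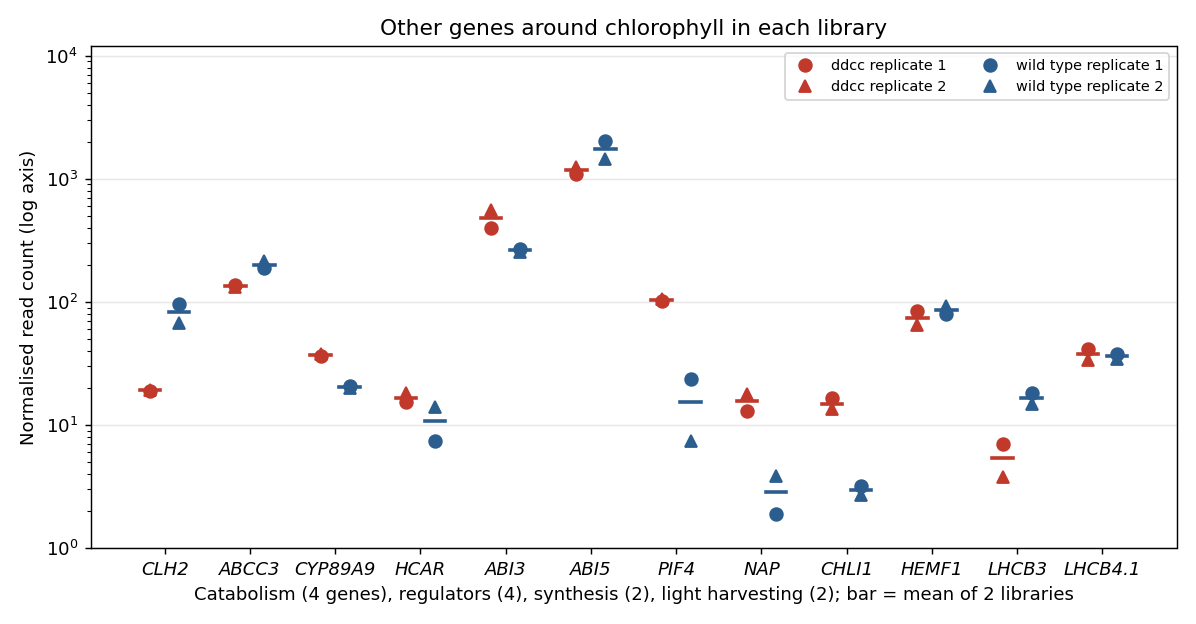
Normalised read counts (log axis) of 12 other genes of chlorophyll metabolism per library, ddcc left of wild type, with the mean of each genotype as a bar; CLH2, ABI3, PIF4, NAP and CHLI1 passed the test, and GLK1, with 1 read in wild type, is not plotted. CLH2 is lower in both ddcc libraries, at 18.9 and 19.4 against 96.5 and 67.9 in wild type, and PIF4 is higher, at 102 and 106 against 23.5 and 7.38.

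Chlorophyll synthesis was represented by 26 genes, of which 18 were tested, 1 was called higher and none lower (3.03% and 3.45% of all genes tested). No gene of the list was lower at an unadjusted p under 0.05 or with voom, and 3 were higher at that unadjusted level, which 10.1% of all genes tested met as higher. CHLI1, a subunit of the enzyme that inserts magnesium, rose to 16.4 and 13.4 normalised counts in ddcc, against 3.20 and 2.71 in wild type (log2 fold change 1.87, limma adjusted p = 0.0336). It rests on 25 reads in ddcc and 8 in wild type, and the call was lost with any 1 library left out (adjusted p from 0.0946 to 0.4). HEMF1, the gene of the list with the highest mean, had 84.7 and 64.4 in ddcc, against 79.2 and 93.4 in wild type (limma adjusted p = 0.692).

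Of 21 light-harvesting proteins, which hold the chlorophyll in the thylakoid, 9 were tested and none was called by limma or voom, while an unadjusted p under 0.05 was met by 2 genes as higher and by 1 as lower (10.1% and 11.1% of all genes tested). LHCB4.1, with the highest mean, had 41.2 and 34.0 normalised counts in ddcc, against 37.9 and 34.5 in wild type (limma adjusted p = 0.947). LHCB3, with the smallest p, had 6.98 and 3.77 in ddcc, against 18.3 and 14.7 in wild type, without overlap (log2 fold change -1.41, limma adjusted p = 0.0882).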

How the data were processed

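RNA-seq was done on whole seeds. Per the labels' protocols, about 25 ng of total RNA was amplified with a NuGEN Ovation kit before Illumina libraries were made. Bowtie 0.12.7, edgeR 3.10.5 and the build TAIR10 are named in the submitters' processing notes. The settings of mapping and counting were not given in the sources used here. With no word on strand, the reads of overlapping genes cannot be told apart. Each deposited value is a signal, a normalised read count of 1 gene that the authors did not divide by its length. Within each genotype they could be turned back to whole reads (all pairs within 0.01), which gave the reads quoted and a voom alternative. The deposited totals were 1325381 and 1410907 in ddcc, against 1815256 and 1705082 in wild type. Because the values are normalised, limma was the main test and no count test was run on the deposited values.

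Log2 values were taken after adding 1 unit (1.56, the mean total divided by 1e6), genes whose mean reached 1 unit were tested with limma 3.58.1 in R 4.3.3 with a variance trend, and p was adjusted by Benjamini-Hochberg. Fold changes on this scale understate those of low genes. Positions and sequence came from TAIR10.1, whose gene table matched 26719 of the 27416 loci, and copies were searched with BLAST+ 2.17.0. The genes, the lists and the naming rule (in each list the called members, the highest mean and the smallest remaining p) were chosen with earlier results of these data known. Both wild-type tables are headed as replicate 2, but their values differ. The alternatives were other pseudocounts and filters, other scalings, other fits, a replicate block, voom, and leaving out each library.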

Additional observations from a re-analysis of the deposited data

How the results depend on the processing

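The call of NYE2 and the counts of genes called moved with scaling, filter and fit. Among these choices the call of PPH was lost with no variance trend alone. With equal nuclear totals, 1439 genes were called higher and 207 lower in ddcc (478 and 545 with the deposited normalisation), 1 of the 7 members was lower (PPH), 1 gene of other catabolism was higher (CYP89A9) and 2 light-harvesting genes were higher (LHCA4 and LHCA5). NYE2 was at -0.48 there (adjusted p = 0.196), and the signs turned for NYE1 (0.083), RCCR (0.36), SGRL (0.080) and HEMF1 (0.17). With quantile normalisation 1 member was lower (PPH) and 1 light-harvesting gene was lower (LHCB3). NYE2 was at -0.62, and NYE1 and RCCR turned to 0.055 and 0.12. With no filter, 191 genes were higher and 145 lower, with 1 member lower, 2 regulators higher and 0 synthesis genes higher, and NYE2 was at -0.87. With no variance trend, 32 genes were higher and 1 lower, with 0 members lower, 0 other catabolism genes lower, 1 regulator higher and 0 synthesis genes higher. There 2 members were lower at an unadjusted p under 0.05, with PPH at -1.53 and NYE2 at -0.87. With voom PAO turned to -0.028. The cause of these changes was not tested.

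No shared effect of the replicate numbers was seen (correlation of deviations -0.0455 over 15780 genes), which cannot settle whether the libraries were paired. With a replicate block 1381 genes were called against 1023, 1 regulator was called lower (ORE1), and PPH and NYE2 kept their calls (adjusted p = 1.57e-05 and 0.0235).

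With each library left out in turn, the genes called ran from 1 to 283 higher and from 0 to 283 lower, members called lower from 0 to 2, regulators higher from 0 to 2, other catabolism lower from 0 to 1, and synthesis higher was 0 throughout. The log2 fold change ran from -1.70 to -1.37 for PPH, -1.17 to -0.57 for NYE2, -0.88 to -0.42 for NYC1, -0.56 to -0.058 for NYE1, -0.20 to 0.66 for NOL, -0.40 to 0.54 for PAO and -0.22 to 0.16 for RCCR. Signs also turned for SGRL (-1.09 to 0.86), TIC55 (-0.080 to 0.12), MES16 (-0.39 to 1.17), VTE6 (-0.063 to 0.69) and LHCB4.1 (-0.082 to 0.18). Over 21 of the other named genes and 310 fits, 267 kept sign and call, 32 lost the call, 2 gained it and 9 changed sign. NOL, PAO and NAP rest on too few reads to show moderate differences.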
